A study of Mus musculus with 9 samples.

Results

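The aminoacyl-tRNA synthetases were followed in neural stem cells of the adult mouse olfactory bulb (aOBSCs) under 3 schedules of growth factor addition. Members were taken by gene symbol alone: every probe set whose single platform symbol is that of an aminoacyl-tRNA synthetase was kept. This gave 36 genes (73 probe sets) of 18193 genes with a single symbol, 20 of them coding for cytosolic enzymes and 16 for mitochondrial enzymes, whose symbols end in 2. Tarsl2, a threonyl-tRNA synthetase that acts in the cytosol, was placed with the cytosolic genes although its symbol ends in 2. Gars and Kars are single genes whose products serve both the cytosol and the mitochondria, and they were also placed with the cytosolic genes.

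Neurospheres, floating balls of dividing cells, were grown for 7 days in a serum-free medium with FGF-2 and EGF, each at 20 ng/ml, which was not renewed in that time. Ctr cultures received the factors daily, C2 cultures at intervals of 2 days and C4 cultures at intervals of 4 days, and each condition was maintained over 2 passages. The study collected C2 cultures 1 day, and C4 cultures 3 days, after the last addition, so the interval between additions and the time since the last one cannot be told apart. The aOBSCs of the expression experiments came from mice of 7 and 15 months. The study used CD1 or adult C57Bl/6 animals, and which age and strain gave which array is not given in the sources used here. RNA was hybridised to 3 Affymetrix arrays per condition, 9 in all, described by the submitters as biological replicates. Whether they came from separate cultures is not stated, so the tests set differences against the spread among these arrays, which may be technical.

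Aminoacyl-tRNA synthetases attach each amino acid to its own tRNA, the step that sets which amino acid a codon is read as. Cytosolic enzymes supply the ribosomes of the cytosol, and a separate set, coded in the nucleus and imported, supplies the ribosomes inside mitochondria. In mammals, many of the cytosolic genes are known targets of ATF4, a transcription factor that is translated when the kinase GCN2 senses uncharged tRNA or when other kinases of the same response are active.

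Values are the deposited log2 signals after GCRMA, so that a difference of 1 is a doubling or a halving and values cannot be set against each other between genes. A gene was read by its probe set of highest mean. It was called higher or lower where the adjusted p of limma's moderated test was under 0.05, with the Benjamini-Hochberg adjustment taken over all 45037 probe sets, and ± is the standard error of that fit. The third quartile of the values lay between 6.46 and 6.6 on all 9 arrays, with no array standing apart. Of the 36 genes, 34 had a mean over 4; Ears2 and Mars2 lay under 4, near the lowest values of the arrays, in all 3 conditions. Defining markers of neural stem and progenitor cells were present (7 of 7 measured over 4), whereas 1 of 5 markers of neurons (Gad1), 1 of 4 of oligodendrocytes (Gpr17), 1 of 5 of microglia (Cd68) and 0 of 3 of endothelial cells exceeded 4. Of these, Gpr17 (2.70) and 3 of 5 markers of astrocytes (Aqp4 0.72, S100b 1.05 and Aldh1l1 1.11) were higher in C4 than in Ctr, while Cd68 was lower (-2.72). The neuron marker Gad1 was also lower in C4 (-0.37). Of the stem and progenitor markers, Fabp7 (0.34), Pax6 (0.57) and Egfr (0.83) were higher and Vim (-0.40) lower in C4 than in Ctr, and the first 3 were also higher in C4 than in C2. Their mean level spanned 11.08 to 11.11 on the Ctr arrays, 11.05 to 11.11 on the C2 arrays and 11.3 to 11.39 on the C4 arrays. Gpr17 (-1.71) and Aldh1l1 (-0.76) were lower in C2 than in Ctr. The mean level over the astrocyte markers spanned 6.60 to 6.64 on the Ctr arrays, 6.51 to 6.74 on the C2 arrays and 7.23 to 7.44 on the C4 arrays, and Mbp, Mog, Sox10, Tubb3, Dcx, Rbfox3, Snap25, Aif1, Cx3cr1, Itgam, Pecam1, Cdh5 and Kdr stayed under 4 in all conditions. In RNA of whole cultures, fewer cells of a type and less RNA per cell cannot be told apart, and the part of these markers in the synthetase results was not tested.

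The cytosolic synthetase genes moved in opposite directions under the 2 longer intervals. In C2, 13 of the 20 genes were higher than in Ctr and 1 was lower, with a median log2 difference of 0.34 (1.27-fold). Among all genes, 1.67% were called higher and 0.846% lower in C2, and among the 9347 genes with a mean over 4 these shares were 3.21% and 1.57%, with a median of 0.02. In C4, 12 of the 20 were lower than in Ctr and 0 were higher, with a median of -0.39. The corresponding shares in C4 were 3.55% lower and 5.65% higher over all genes, and 6.78% lower and 10.7% higher over genes with a mean over 4, with a median of 0.05. Between C4 and C2 the difference was larger: 15 of the 20 were lower in C4, 0 were higher, and the median was -0.81 (1.75-fold lower). In this comparison 3.49% of all genes were called lower and 4.29% higher, or 6.67% and 8.13% of genes with a mean over 4, whose median was 0.02. At an unadjusted p under 0.05, 1 cytosolic gene was higher in C4 than in Ctr and 1 higher in C4 than in C2 by limma, the only tool run. C2 and C4 were set against the same Ctr arrays, so their values are given side by side and their opposite signs are not separate evidence.

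The mitochondrial synthetase genes showed little of this. Of the 16 genes, 1 was higher in C2 and 1 in C4 than in Ctr, Rars2 in both cases, 0 were lower in either, and 0 differed between C4 and C2. That is 6.25% in each, beside 1.67% of all genes called higher in C2 and 5.65% in C4. Of the 14 with a mean over 4 it is 7.14%, beside 3.21% and 10.7%, so the count in C4 is near the background. At an unadjusted p under 0.05, limma gave 2 higher and 0 lower in C2, 3 higher and 0 lower in C4, and 1 higher and 0 lower in C4 against C2. Of the 14 with a mean over 4, 2, 2 and 1 were higher and 0 lower. Among all 9347 genes with a mean over 4, 1570 were higher and 893 lower in C2 at that p. The counts were 2305 and 1442 in C4, and 1834 and 1565 in C4 against C2. The median log2 differences of the 16 mitochondrial genes were 0.07 in C2, 0.06 in C4 and -0.04 in C4 against C2. No test of the difference between the 2 classes was made, and they are described by their counts and medians. The mitochondrial probe sets also read lower for the most part, at most 8.78 as a Ctr mean (Iars2) against 11.09 (Nars) in the cytosolic class. Their standard errors reached 0.21 (Pars2), against 0.11 (Vars). The part of signal level and precision in the contrast of the classes was not tested.

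**Figure D1:**
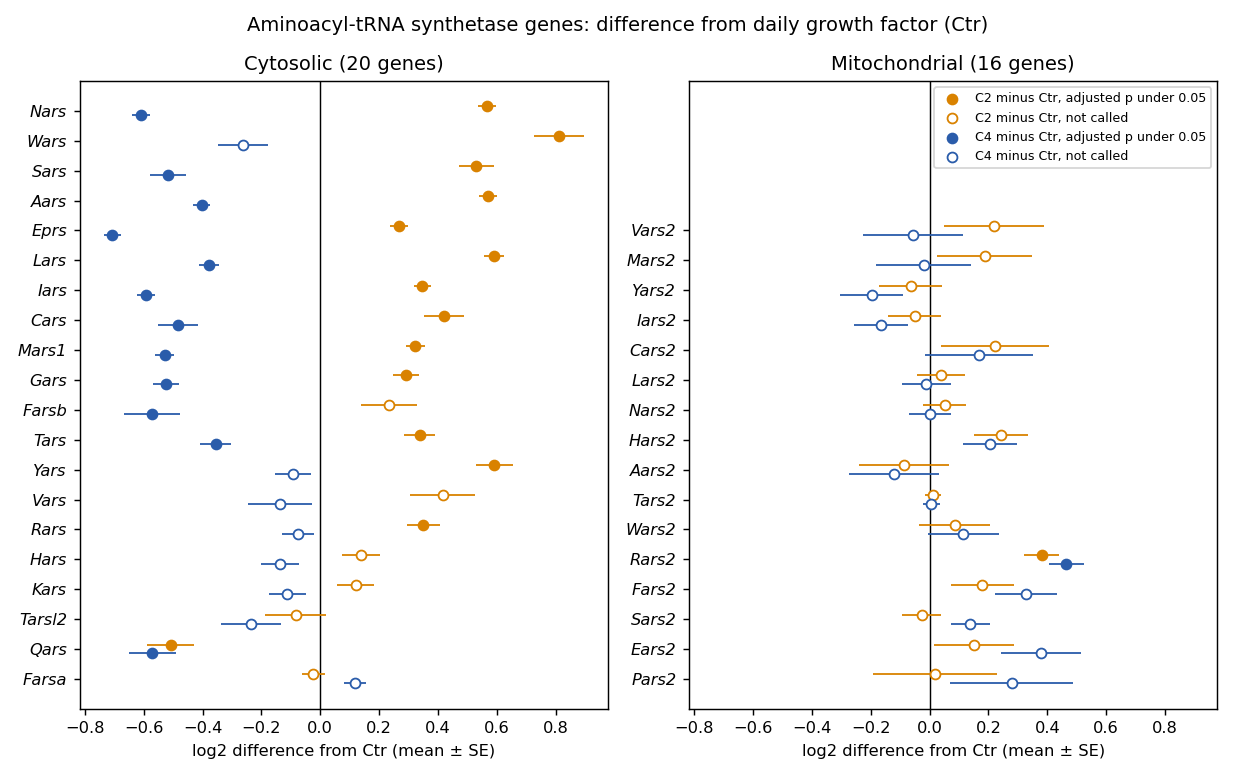
Log2 difference from Ctr of the 20 cytosolic (left) and 16 mitochondrial (right) synthetase genes in C2 (orange) and C4 (blue), ordered by the difference between C4 and C2; bars are ± 1 standard error of the limma fit, filled points have an adjusted p under 0.05 and open points do not. Most cytosolic genes have an orange point to the right of 0 and a blue point to the left, and among the mitochondrial genes Rars2 alone has filled points.

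The same separation was seen array by array. Taken relative to each gene's Ctr mean, the median over the 20 cytosolic genes was 0.34, 0.28 and 0.39 on the C2 arrays and -0.41, -0.39 and -0.37 on the C4 arrays, against -0.01, -0.02 and 0.03 on the Ctr arrays. Thus the 3 conditions did not overlap in this median. Over the 16 mitochondrial genes it was 0.12, 0.05 and 0.04 on the C2 arrays, 0.06, 0.13 and 0.03 on the C4 arrays and 0.00, 0.03 and 0.01 on the Ctr arrays, and here the arrays of C2 and C4 overlapped. Array C4 3 (0.0257) also lay below Ctr 2 (0.0333).

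**Figure D2:**
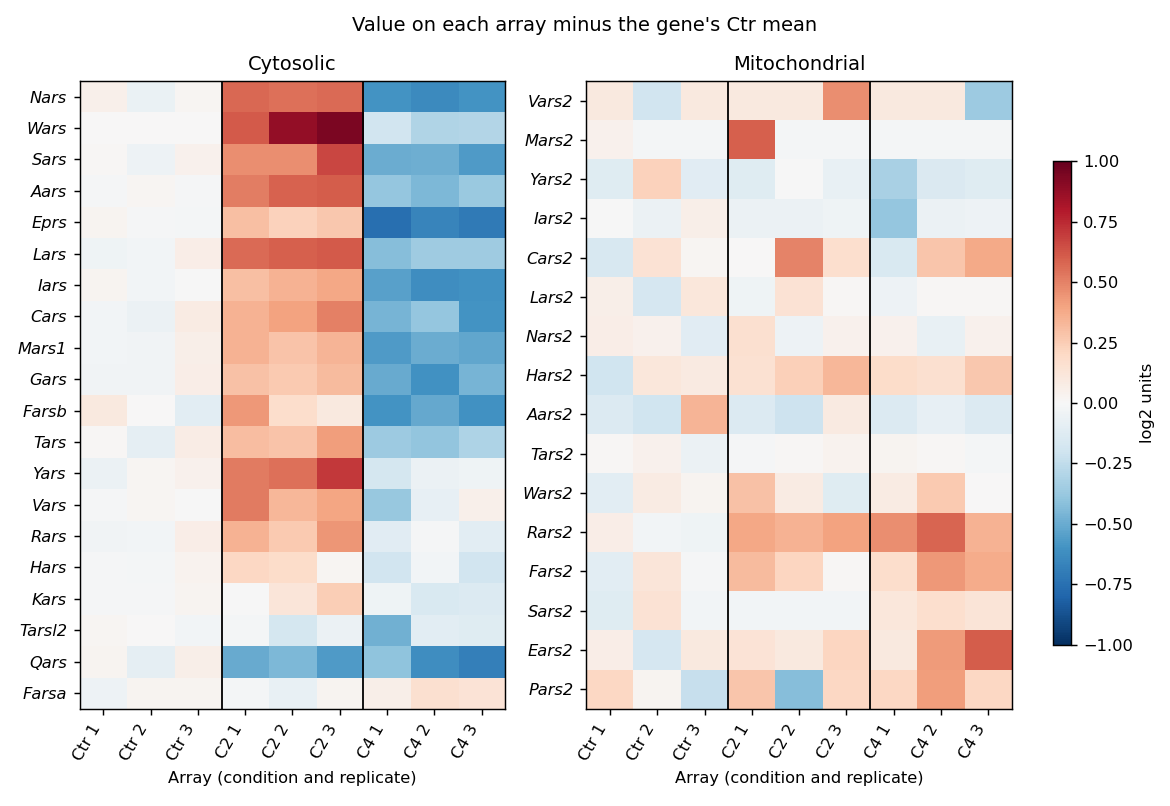
Value of each synthetase gene on each of the 9 arrays minus the gene's mean over the Ctr arrays (colour, log2 units, from -1 in blue to 1 in red), with genes in the order of the plot of differences. In the cytosolic panel the upper rows are red on all 3 C2 arrays and blue on all 3 C4 arrays, Qars is blue on both, and in the mitochondrial panel Rars2 is red on all 6 arrays of C2 and C4.

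Of the cytosolic enzymes, Eprs, Iars, Lars, Mars1, Qars, Rars and Kars are held in the multisynthetase complex. In C4, 5 of these 7 were lower than in Ctr and 0 were higher (median -0.53), and in C2, 5 were higher and 1 lower (median 0.32). This is 71.4% lower in C4 and 71.4% higher in C2, beside 53.8% and 61.5% of the other 13 cytosolic genes. Among genes with a mean over 4 the shares were 6.78% and 3.21%. Eprs, the joint glutamyl- and prolyl-tRNA synthetase, gave 10.52, 10.48 and 10.47 on the Ctr arrays, 10.79, 10.71 and 10.76 on the C2 arrays and 9.74, 9.83 and 9.78 on the C4 arrays. All C4 arrays lay below, and all C2 arrays above, the Ctr arrays. Eprs fell in C4 by 0.71 ± 0.03 on the log2 scale (1.63-fold, limma adjusted p = 0.000143), the greatest decrease among the representative probe sets, and rose in C2 by 0.27 ± 0.03 (adjusted p = 0.0133). The other 2 probe sets of Eprs with a mean over 4 fell less in C4, 1426713_s_at by 0.43 (limma adjusted p = 0.047) and 1452157_at by 0.34 (adjusted p = 0.0412), and the mean over its probe sets fell by 0.41. The call of Eprs in C2 was lost without Ctr 2 or C2 3 (limma adjusted p of 0.0564 at most). Iars, the isoleucyl enzyme, had values of 10.46, 10.41 and 10.43 on the Ctr arrays, 10.74, 10.78 and 10.82 on the C2 arrays and 9.89, 9.81 and 9.83 on the C4 arrays. It was lower in C4 by 1.51-fold (-0.59 ± 0.03, limma adjusted p = 0.000234) and higher in C2 by 1.27-fold (0.35 ± 0.03, adjusted p = 0.00664).

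Lars codes for leucyl-tRNA synthetase, which also acts as a leucine sensor upstream of mTORC1. Its values were 10.59, 10.60 and 10.70 on the Ctr arrays, 11.19, 11.22 and 11.24 on the C2 arrays and 10.21, 10.27 and 10.27 on the C4 arrays. The 3 conditions did not overlap, with a difference of 0.59 ± 0.03 in C2 (limma adjusted p = 0.00201) and of -0.38 ± 0.03 in C4 (adjusted p = 0.00177). Mars1, the methionyl enzyme, which also charges the tRNA that starts translation, gave 10.61, 10.60 and 10.69 on the Ctr arrays, 10.98, 10.92 and 10.97 on the C2 arrays and 10.07, 10.14 and 10.11 on the C4 arrays. It too was separated in both comparisons, by 0.32 ± 0.03 in C2 (limma adjusted p = 0.00936) and -0.53 ± 0.03 in C4 (adjusted p = 0.00039). Rars, the arginyl enzyme, had 8.97, 8.98 and 9.07 on the Ctr arrays, 9.35, 9.27 and 9.45 on the C2 arrays and 8.89, 9.00 and 8.90 on the C4 arrays. Only the C2 arrays stood apart: Rars rose in C2 (0.35 ± 0.05, limma adjusted p = 0.0374), while the C4 and Ctr arrays overlapped (-0.08 ± 0.05, adjusted p = 0.632). The C2 call of Rars was lost without any 1 of the 9 arrays, at limma adjusted p between 0.0506 and 0.131. Kars, the lysyl enzyme, was called in neither (C2 0.12 ± 0.06, C4 -0.11 ± 0.06).

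Qars, the glutaminyl-tRNA synthetase, was the one cytosolic gene called lower in both C2 and C4. Its representative probe set read 9.51, 9.39 and 9.54 on the Ctr arrays, 8.97, 9.03 and 8.91 on the C2 arrays and 9.07, 8.86 and 8.79 on the C4 arrays. All C2 and C4 arrays lay below the Ctr arrays, with differences of -0.51 ± 0.08 in C2 (limma adjusted p = 0.0368) and -0.57 ± 0.08 in C4 (adjusted p = 0.00883). The C2 call was lost without any 1 of Ctr 1, Ctr 2, Ctr 3, C2 1, C2 2, C2 3 or C4 2, at limma adjusted p between 0.0664 and 0.123. The other 2 probe sets of Qars with a mean over 4 were not called: 1423712_a_at differed by -0.05 in C2 and 0.01 in C4, and 1456213_x_at by -0.15 and -0.21. The representative carries the suffix _x_at, which Affymetrix gives to probe sets whose probes may also match other transcripts, so the decrease of Qars rests on a single such probe set.

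Among the enzymes outside the complex, Nars, the asparaginyl enzyme, showed the greatest difference between C4 and C2, -1.18 ± 0.03 (2.26-fold, limma adjusted p = 1.74e-05). It read 11.14, 11.02 and 11.11 on the Ctr arrays, 11.67, 11.65 and 11.66 on the C2 arrays and 10.50, 10.46 and 10.49 on the C4 arrays. The spread within each condition was small beside the gaps, of 0.57 ± 0.03 in C2 (limma adjusted p = 0.00156) and -0.61 ± 0.03 in C4 (adjusted p = 0.000212), and its second probe set gave 0.50 and -0.58. Aars, the alanyl enzyme, had values of 10.34, 10.38 and 10.34 on the Ctr arrays, 10.87, 10.95 and 10.96 on the C2 arrays and 9.97, 9.91 and 9.98 on the C4 arrays. It rose 1.49-fold in C2 (0.57 ± 0.03, limma adjusted p = 0.00156) and fell 1.32-fold in C4 (-0.40 ± 0.03, adjusted p = 0.000885). The other probe set of Aars, 1423685_at, was not called in C2 (0.43 ± 0.08, limma adjusted p = 0.0625). It was called in C4 (-0.47 ± 0.08, limma adjusted p = 0.019). Sars, the seryl enzyme, which also loads serine on the tRNA for selenocysteine, gave 11.03, 10.96 and 11.06 on the Ctr arrays, 11.48, 11.48 and 11.68 on the C2 arrays and 10.52, 10.53 and 10.45 on the C4 arrays. It was higher in C2 (0.53 ± 0.06, limma adjusted p = 0.0138) and lower in C4 (-0.52 ± 0.06, adjusted p = 0.00458), and the difference between C4 and C2 reached -1.05. Without Ctr 2 the C2 call of Sars was lost (limma adjusted p = 0.0552).

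Gars, the glycyl enzyme, and Tars, the threonyl enzyme, behaved alike in direction. The arrays of Gars read 10.32, 10.32 and 10.42 on the Ctr arrays, 10.64, 10.61 and 10.67 on the C2 arrays and 9.85, 9.75 and 9.89 on the C4 arrays, and those of Tars 9.42, 9.33 and 9.49 on the Ctr arrays, 9.72, 9.69 and 9.83 on the C2 arrays and 9.05, 9.02 and 9.10 on the C4 arrays. In both genes every C2 array exceeded, and every C4 array fell short of, every Ctr array. The differences of Gars were 0.29 ± 0.04 in C2 (limma adjusted p = 0.0338) and -0.52 ± 0.04 in C4 (adjusted p = 0.00135). Those of Tars were 0.34 ± 0.05 (limma adjusted p = 0.0368) and -0.36 ± 0.05 (adjusted p = 0.0113). The C2 call of Tars was lost without any 1 of the 9 arrays (limma adjusted p between 0.0506 and 0.107), and that of Gars without any 1 of Ctr 1, Ctr 2, C2 1, C2 2, C2 3 or C4 1 (between 0.0654 and 0.117). Cars, the cysteinyl enzyme, gave 8.57, 8.54 and 8.68 on the Ctr arrays, 8.95, 9.00 and 9.10 on the C2 arrays and 8.13, 8.21 and 8.001 on the C4 arrays, which again left the conditions apart, with a rise of 0.42 ± 0.07 in C2 (limma adjusted p = 0.0423) and a difference of -0.48 ± 0.07 in C4 (adjusted p = 0.00962). The C2 call of Cars was lost without any 1 array other than C4 3, at limma adjusted p between 0.0504 and 0.14. Its other probe set, 1427330_at, lay near the lowest values and differed by -0.01 and -0.03.

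Wars and Yars, the tryptophanyl and tyrosyl enzymes, were higher in C2 but not called in C4 against Ctr. The values of Wars were 7.68, 7.68 and 7.68 on the Ctr arrays, 8.29, 8.56 and 8.62 on the C2 arrays and 7.49, 7.38 and 7.39 on the C4 arrays; the 3 Ctr values are identical as deposited. Wars showed the greatest rise of any synthetase gene in C2, 0.81 ± 0.08 (1.76-fold, limma adjusted p = 0.0107), and all 3 C4 arrays lay below Ctr without a call (-0.26 ± 0.08, adjusted p = 0.17). In Wars 4 probe sets exceeded 4, and their differences ranged from 0.81 to 1.14 in C2 and from -0.35 to -0.08 in C4, where 1437832_x_at was called (-0.21 ± 0.04, limma adjusted p = 0.0457). Without array C2 1, the representative of Wars passed the test in C4 as well (limma adjusted p = 0.0143). Yars read 8.02, 8.10 and 8.12 on the Ctr arrays, 8.59, 8.63 and 8.78 on the C2 arrays and 7.90, 8.02 and 8.04 on the C4 arrays. It rose in C2 by 0.59 ± 0.06 (limma adjusted p = 0.0107), whereas its C4 arrays overlapped Ctr (-0.09 ± 0.06). Both genes were lower in C4 than in C2, Wars by 2.11-fold (limma adjusted p = 0.00104) and Yars by 1.61-fold (adjusted p = 0.00179).

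The 2 subunits of the cytosolic phenylalanyl enzyme, which work as a tetramer of both, differed from each other in their calls. Farsb, the beta subunit, read 10.03, 9.94 and 9.83 on the Ctr arrays, 10.37, 10.11 and 10.03 on the C2 arrays and 9.33, 9.42 and 9.33 on the C4 arrays. Its C4 arrays lay below Ctr (-0.57 ± 0.09, limma adjusted p = 0.0174), and its C2 arrays overlapped Ctr at the edge (0.23 ± 0.09, adjusted p = 0.463). Its other probe sets over 4 gave -0.26 and -0.15 in C4, not called, and 0.46 and 0.41 in C2, of which the second was called (limma adjusted p = 0.0126). The representative of Farsb is an _x_at set, and without _s_at and _x_at sets the difference in C4 was -0.15 (limma adjusted p = 0.134). The C4 call of Farsb was also lost without array Ctr 1, Ctr 2, C4 1 or C4 3, at adjusted p between 0.0555 and 0.0673. Farsa, the alpha subunit, was called in no comparison (C2 -0.02 ± 0.04, C4 0.12 ± 0.04); the difference between the subunits was not tested. Vars, the valyl enzyme, gave 5.15, 5.19 and 5.16 on the Ctr arrays, 5.69, 5.498 and 5.57 on the C2 arrays and 4.79, 5.09 and 5.22 on the C4 arrays. All C2 arrays were above Ctr (0.42 ± 0.11, limma adjusted p = 0.172) and one C4 array also was, so that Vars was called only between C4 and C2 (-0.55 ± 0.11, adjusted p = 0.0385), a call lost without any 1 of Ctr 1, Ctr 2, Ctr 3, C2 1, C2 2, C2 3 or C4 2, at adjusted p between 0.077 and 0.129. Hars (C2 0.14, C4 -0.14) and Tarsl2 (C2 -0.08, C4 -0.24) were not called.

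**Figure D3:**
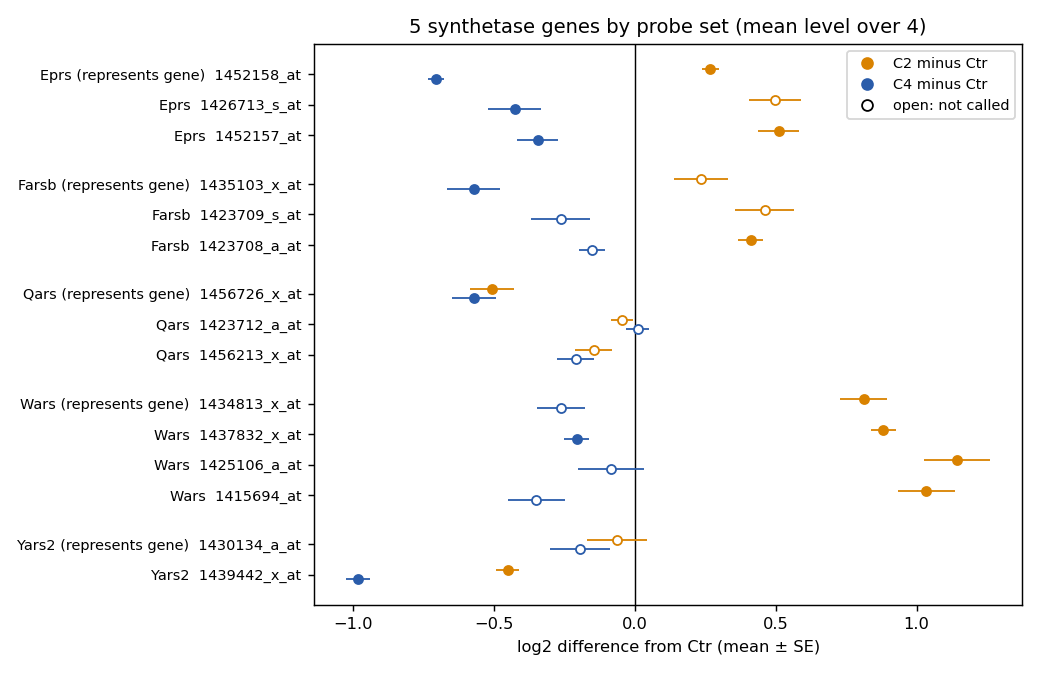
Log2 difference from Ctr in C2 (orange) and C4 (blue) for every probe set with a mean over 4 of Eprs, Farsb, Qars, Wars and Yars2, genes chosen after their values were seen; bars are ± 1 standard error, open points were not called. The 4 probe sets of Wars all lie above 0.8 in C2, whereas one probe set of Qars and one of Yars2 lie far from the others of their gene.

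The calls were also counted over all probe sets with a mean over 4. Of 35 cytosolic probe sets, 21 were higher and 1 lower in C2, 19 lower and 0 higher in C4, and 26 lower and 0 higher in C4 against C2. Of 21 mitochondrial probe sets, 1 was higher and 1 lower in C2 and in C4, and 1 was lower in C4 against C2. No share over all probe sets was taken. Among genes with a mean over 4, 3.21% were higher and 1.57% lower in C2, and 10.7% and 6.78% in C4. In C4 against C2 these shares were 8.13% and 6.67%, and the single mitochondrial calls are not read as a result. Probe sets of a gene read the same transcripts and are not independent.

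The family has 2 catalytic classes, which differ in the fold of the active site. Of 10 cytosolic class I genes, 8 were higher and 1 lower in C2 and 6 lower in C4 (medians 0.38 and -0.43), and of 10 class II genes, 5 were higher in C2 and 6 lower in C4 (medians 0.26 and -0.38). Outside the multisynthetase complex, 8 of 13 cytosolic genes were higher in C2 and 7 lower in C4. A second division, by described ATF4 targets, was made with earlier results of these arrays known. All 12 cytosolic genes that general knowledge lists as ATF4 targets (Aars, Cars, Eprs, Gars, Iars, Lars, Mars1, Nars, Sars, Tars, Wars and Yars) were higher in C2 (median 0.47), 10 were lower in C4 (median -0.50), and 12 were lower in C4 than in C2 (median -0.95). Of the 8 other cytosolic genes, 1 was higher (Rars) and 1 lower (Qars) in C2, 2 were lower in C4 (Farsb and Qars) and 3 were lower in C4 than in C2 (Farsb, Rars and Vars). The median of these 8 was 0.13 in C2, -0.14 in C4 and -0.25 in C4 against C2, and none of these divisions was tested. Of genes with a mean over 4, 3.21% were higher and 1.57% lower in C2. The share lower was 6.78% in C4 and 6.67% in C4 against C2.

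The study set a difference of 1 as its threshold. No synthetase gene reached it against Ctr, where 0.89% of all genes did so in C4 and 0.0824% in C2. Between C4 and C2, 3 did, Nars (-1.18), Wars (-1.07) and Sars (-1.05), against 0.885% of all genes.

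Promoter sequences of RefSeq (build GRCm38.p6, 250 bases before to 50 bases after the transcript start that RefSeq's table gives for each gene, which can lie inside the gene) were matched for 13 cytosolic and 14 mitochondrial genes. They were searched on both strands for TGATGNAA, the core of the element that ATF4 binds with its partners. A match stood in 5 of the 13 cytosolic genes and in 0 of the 14 mitochondrial genes. Of all 27025 genes with a promoter 4.51% held a match (3.97% of all 32851 promoters). The 5 cytosolic genes (Aars, Gars, Iars, Tars and Yars) were all higher in C2, but so were 13 of all 20 cytosolic genes. Eprs, Mars1 and Sars, whose promoters hold no match, were among these. A link between a match and the rise in C2 was not tested. The match began 112 bases before the start in Aars, with another 10 bases after it, 30 before it in Gars and 15 before it in Tars, and it lay 8 bases into the transcript in Iars and 4 in Yars. In Aars and Yars the start used lies inside the gene. Aars begins at base 111027778 of chr8 and Yars at base 129189734 of chr4. The stretches that hold it are printed 5′ to 3′ on the strand of the gene, with the match in capitals, to show the letters that these co-varying genes share: Aars (chr8:111033692-111033841, plus strand), Gars (chr6:55037851-55038000, plus strand), Tars (chr15:11399659-11399808, minus strand), Iars (chr13:49682126-49682155, plus strand) and Yars (chr4:129189895-129189924, plus strand).
Aars: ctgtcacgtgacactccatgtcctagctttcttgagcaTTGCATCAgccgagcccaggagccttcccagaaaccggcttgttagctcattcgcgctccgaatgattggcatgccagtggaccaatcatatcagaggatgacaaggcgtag
Gars: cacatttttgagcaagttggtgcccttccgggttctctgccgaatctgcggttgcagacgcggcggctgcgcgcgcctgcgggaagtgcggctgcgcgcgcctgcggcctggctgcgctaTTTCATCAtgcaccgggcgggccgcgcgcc
Tars: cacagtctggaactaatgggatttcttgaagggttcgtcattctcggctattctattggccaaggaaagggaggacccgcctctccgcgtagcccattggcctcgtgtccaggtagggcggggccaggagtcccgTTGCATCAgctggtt
Iars: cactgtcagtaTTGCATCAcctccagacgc
Yars: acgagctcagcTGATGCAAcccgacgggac

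In Iars, Tars and before the start used in Aars the match reads TTGCATCA, the reverse complement of the TGATGCAA of Yars, and in Gars TTTCATCA. The other 8 cytosolic genes with a promoter hold no such letters in this window, Eprs, Mars1 and Sars among them, which says nothing of the factor. Cars, Hars, Lars, Nars, Rars, Vars and Wars had no entry, nor had Hars2 and Pars2. A match is a description of the sequence and not a binding site.

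Of the mitochondrial genes, Rars2, the arginyl enzyme of the mitochondria, was called. It gave 7.81, 7.72 and 7.71 on the Ctr arrays, 8.13, 8.10 and 8.15 on the C2 arrays and 8.21, 8.33 and 8.09 on the C4 arrays. All 6 arrays of C2 and C4 exceeded the Ctr arrays, by 0.38 ± 0.06 in C2 (1.3-fold, limma adjusted p = 0.0375) and 0.46 ± 0.06 in C4 (1.38-fold, adjusted p = 0.00666), while C4 and C2 overlapped (0.08 ± 0.06). The call in C2 was lost without any 1 of Ctr 1, Ctr 2, Ctr 3, C2 1, C2 2, C2 3 or C4 1, at limma adjusted p between 0.0748 and 0.131, whereas that in C4 remained without each array. A second gene passed the test in C4 without array Ctr 2 (Sars2, 0.21, limma adjusted p = 0.0459) and another without C4 1 (Ears2, near the lowest values, 0.52, adjusted p = 0.0461). The other 15 mitochondrial genes lay between -0.20 (Yars2) and 0.38 (Ears2) in C4 and between -0.09 (Aars2) and 0.24 (Hars2) in C2. All arrays lay above Ctr in C4 also for Fars2 (0.33 ± 0.11, limma adjusted p = 0.175) and Hars2 (0.20 ± 0.09, adjusted p = 0.363), neither of which was called. For Yars2 all C4 arrays lay below Ctr, also without a call (-0.20 ± 0.11, limma adjusted p = 0.514). With Rars2, 3 of the 14 genes with a mean over 4 lay wholly above Ctr and 1 wholly below. Of all 9347 genes with a mean over 4, 2416 lay wholly above and 1512 wholly below.

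Yars2, the mitochondrial tyrosyl enzyme, was read differently by its 2 probe sets. The representative was not called (C2 -0.06 ± 0.11, C4 -0.20 ± 0.11). The other, 1439442_x_at, read 7.15, 7.19 and 7.26 on the Ctr arrays, 6.75, 6.75 and 6.75 on the C2 arrays and 6.16, 6.2 and 6.30 on the C4 arrays, and was lower in C2 (-0.45 ± 0.04, limma adjusted p = 0.00746) and in C4 (-0.98 ± 0.04, adjusted p = 0.000143). The 3 C2 values of this probe set are identical as deposited, so that condition adds no spread to its fit. With the mean of both probe sets Yars2 was lower in C4 (-0.59, limma adjusted p = 0.00284). As with Qars, the probe set that fell is an _x_at set.

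The promoter of Rars2 is shown because this gene alone was called in its class, a count near the background in C4. It holds GCATGCGC, the core of the element bound by NRF1, a factor known for genes of the mitochondria, 51 bases before the start (in capitals; chr4:34614807-34614956, plus strand). The same letters stood in 3 of the 14 mitochondrial genes (Rars2, Vars2 and Wars2) and in 0 of the 13 cytosolic genes. Of all genes with a promoter 3.05% held them, and Vars2 and Wars2 were not called. CCGGAAG, the core bound by ETS factors, stood in 5 of the cytosolic and 4 of the mitochondrial genes. Of all genes with a promoter 9.93% held it.
Rars2: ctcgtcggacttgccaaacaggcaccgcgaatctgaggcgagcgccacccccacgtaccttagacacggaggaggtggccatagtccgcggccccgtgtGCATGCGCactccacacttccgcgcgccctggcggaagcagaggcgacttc

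For 13 amino acids a cytosolic and a mitochondrial gene of the same stem could be set side by side. In 12 of 13 pairs the cytosolic gene had the lower difference in C4, Yars being the exception, and in 11 of 13 it had the higher difference in C2, the exceptions being Hars and Rars. Asparagine gave 0.57 for Nars against 0.05 for Nars2 in C2, and -0.61 against 0.00 in C4. Leucine gave 0.59 for Lars against 0.04 for Lars2 in C2, and -0.38 against -0.01 in C4. Arginine was the pair in which the mitochondrial gene was called in both conditions and the cytosolic gene in C2.

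Other genes of the pathway were read from lists written from general knowledge. The GCN2 and ATF4 pathway (22 of 23 genes matched) had 14 genes higher and 1 lower in C2, 13 lower and 0 higher in C4, and 19 lower and 0 higher in C4 against C2, with medians of 0.61, -0.61 and -1.22. Beside these shares of 63.6% higher in C2, 59.1% lower in C4 and 86.4% lower in C4 against C2 stand 3.21%, 6.78% and 6.67% of all genes with a mean over 4. Asns, asparagine synthetase, read 11.48, 11.41 and 11.48 on the Ctr arrays, 12.06, 12.03 and 12.10 on the C2 arrays and 10.57, 10.66 and 10.56 on the C4 arrays. Its conditions did not overlap, with differences of 0.61 ± 0.04 in C2 (limma adjusted p = 0.00218) and -0.86 ± 0.04 in C4 (adjusted p = 0.000143). Slc3a2, the heavy chain of amino acid transporters, differed by 0.61 ± 0.02 and -0.66 ± 0.02, and Nupr1, a stress-induced transcription regulator, by 1.01 ± 0.05 and -1.11 ± 0.05, each called in both. Ddit4, an inhibitor of mTORC1, was lower in both (-0.21 ± 0.02 and -0.40 ± 0.02). The mRNA of Atf4 itself rose in C2 (0.46 ± 0.06, limma adjusted p = 0.0243) and was not called in C4 (-0.22 ± 0.06, adjusted p = 0.117), and that of Eif2ak4, which codes for GCN2, was called in neither (-0.24 and -0.45). A match to TGATGNAA stood in 6 of the 20 genes of this list with a promoter.

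**Figure D4:**
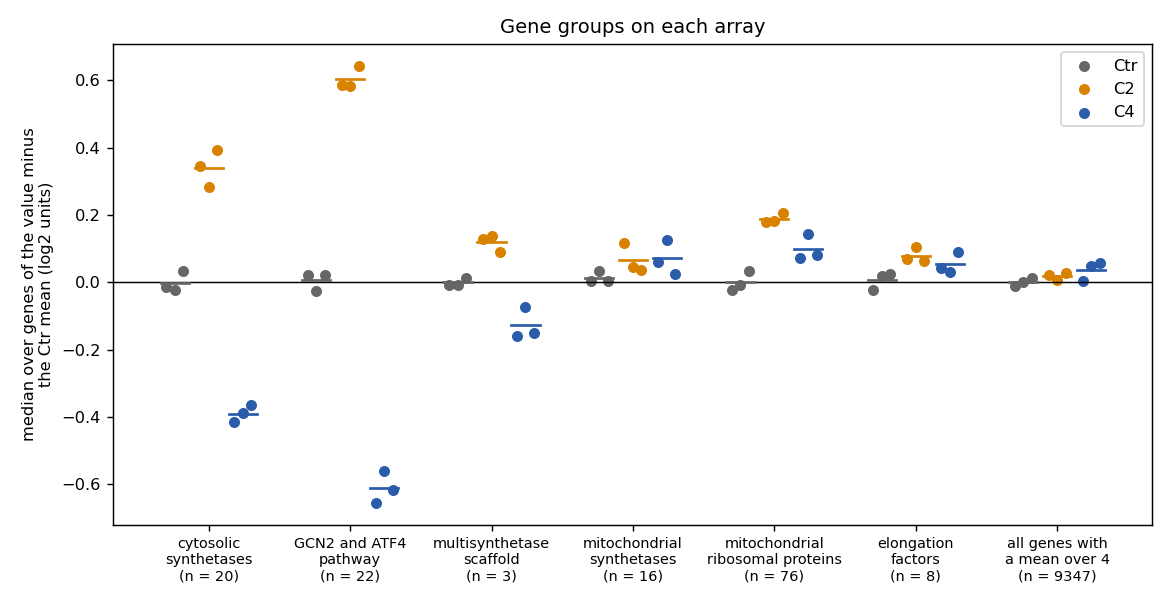
Median over the genes of a group of the value minus the gene's Ctr mean (log2 units), 1 point per array and a line at the mean of 3 arrays, for Ctr (grey), C2 (orange) and C4 (blue); n is the number of genes. Cytosolic synthetases and the GCN2 and ATF4 pathway lie above Ctr in C2 and below it in C4 on every array. Mitochondrial synthetases, mitochondrial ribosomal proteins and elongation factors have a median above 0 on every array of C2 and C4. So do all genes with a mean over 4 (0.005 to 0.0581), and some medians of the mitochondrial synthetases and elongation factors are within that range.

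Partners of the synthetases were called in part. Of the 3 scaffold proteins of the multisynthetase complex, Eef1e1 rose in C2 (0.28 ± 0.05, limma adjusted p = 0.0429), Aimp2 fell in C4 (-0.15 ± 0.03, adjusted p = 0.026), both were lower in C4 than in C2, and Aimp1 was called in no comparison. Xpot, the carrier that exports tRNA from the nucleus, read 10.39, 10.33 and 10.35 on the Ctr arrays, 10.78, 10.81 and 10.71 on the C2 arrays and 9.87, 9.76 and 10.03 on the C4 arrays. It was higher in C2 (0.41 ± 0.07, limma adjusted p = 0.0414) and lower in C4 (-0.47 ± 0.07, adjusted p = 0.00979). Of the 9 genes matched of its list (tRNA export, transamidation, formylation and proofreading), Qrsl1, a subunit of the mitochondrial amidotransferase that makes glutaminyl-tRNA, was the other called gene (-0.42 ± 0.09 in C4, limma adjusted p = 0.0359). Of 8 translation elongation factors and their exchange factors, 0 were called in C2, where 4 were higher and 1 lower at an unadjusted p under 0.05, and in C4 Eef1d was higher (0.24 ± 0.04) and Eef1b2 lower (-0.10 ± 0.02). In C4 this is 12.5% higher and 12.5% lower, beside 10.7% and 6.78% of genes with a mean over 4, so these counts are near the background. Against C2, 0 of the 8 were called in C4, with 0 higher and 1 lower at an unadjusted p under 0.05. At that p, of 9347 genes with a mean over 4, 1570 were higher and 893 lower in C2. In C4 against C2, 1834 were higher and 1565 lower. The 76 mitochondrial ribosomal protein genes had 13 higher and 0 lower in C2 and 11 higher and 0 lower in C4, with medians of 0.18 and 0.11, and 9 were lower in C4 than in C2. Of genes with a mean over 4, 3.21% were higher in C2 against 17.1% of this list, 10.7% were higher in C4 against 14.5%, which is near the background, and 6.67% were lower in C4 than in C2 against 11.8%. By smallest p in C4 these were led by Mrpl13 (0.38 ± 0.04), Mrps33 (0.28 ± 0.05), Mrpl50 (0.59 ± 0.10) and Mrpl42 (0.22 ± 0.04).

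The counts of C2 depended on single arrays and on the fit more than those of C4. The 14 cytosolic genes called in C2 became 9 without Ctr 1, 7 without Ctr 2, 9 without C2 1, 9 without C2 2 and 8 without C2 3, and of the 15 members called in C2 only Lars and Nars were called under every setting tried. In C4 the count of cytosolic genes stayed between 10 and 13, and in C4 against C2 between 14 and 17. Of the calls, 9 of 13 in C4 and 14 of 15 in C4 against C2 held under every setting tried.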

How the data were processed

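RNA of 9 samples, 3 per condition, was measured on Affymetrix Mouse Genome arrays. The deposited values are log2 signals that the authors made with GCRMA, which subtracts a background modelled from probe sequence, equalises the distributions of the arrays and summarises each probe set; its version is not given in the sources used here. Probes that match several transcripts, and values near the common lowest level, limit what such signals can show. With 3 arrays per condition, precision is limited by their number.

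The table held 45101 probe sets. After removal of 64 Affymetrix controls, 45037 entered a fit with limma 3.58.1 in R 4.3.3 (lmFit, contrasts.fit, eBayes with trend; 1 mean per condition over all 9 arrays; 6 residual and 0.574 prior degrees of freedom), without a filter, with Benjamini-Hochberg adjustment in each of 3 comparisons. The platform annotation gave 1 symbol for 34945 probe sets, several for 932 and none for 9160. All 36 member genes matched RefSeq (GRCm38.p6) by Entrez number. Promoters were searched and figures drawn with Python 3.11.15, pandas 2.3.3 and matplotlib 3.10.9. The procedure was tested on simulated data.

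The members and the gene lists were chosen with earlier results of these data known. Named with the value of every array were the members called in any comparison; of each companion list, up to 4 genes of smallest p in C4 were named. Atf4, Eif2ak4 and Yars2 were added after their values were seen. Same-numbered arrays of different conditions were checked for shared deviations and were not treated as pairs. Alternatives were another variance prior, a filter on dim probe sets, the arrays of the compared groups alone, a replicate block, median centring, other ways to represent a gene, other class members and leaving out each array; reading every other probe set on its own was added after the data were seen.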

Additional observations from a re-analysis of the deposited data

How the results depend on the processing

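Directions of the class medians were kept under all alternatives. Among cytosolic genes, the calls in C2 fell from 14 to 3 with a robust variance prior, to 8 with the arrays of the compared groups alone, and to between 7 and 12 when 1 array was left out; the cause was not tested. The median in C4 was -0.4392 with median centring, -0.2518 with the mean of a gene's probe sets and -0.2953 without _s_at and _x_at probe sets. In C4 against C2 it was -0.689 with the mean of a gene's probe sets, -0.7538 without _s_at and _x_at probe sets, -0.8516 without Gars, Kars and Tarsl2, and -0.8335 to -0.7685 when 1 array was left out. Among mitochondrial genes, the calls in C4 numbered 2 with a filter on dim probe sets and 2 with the mean of a gene's probe sets, against 1, and 1 to 2 when 1 array was left out. The median in C4 was 0.0112 with median centring and 0.019 with the mean of a gene's probe sets. In C2 the calls numbered 0 with a robust prior and 0 to 1 when 1 array was left out, and the median was 0.0266 with the mean of a gene's probe sets and 0.008 to 0.1037 when 1 array was left out. In C4 against C2 there was 1 call with the mean of a gene's probe sets, that of Yars2. Of the genes called in a comparison, 2 changed sign in it: Qars in C4, 0.0103 without _s_at and _x_at probe sets (the value of 1423712_a_at) and 0.0369 with 1453237_at, and Cars in C2, -0.0108 with 1427330_at.

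With the replicate number as a block, 8 cytosolic and 0 mitochondrial genes were called in C2, 11 and 1 in C4, and 14 and 0 in C4 against C2. Same-numbered arrays of different conditions correlated in their deviations between -0.042 and 0.126, and other arrays between -0.12 and 0.094. Of 9 arrays, 4 correlated best with their own number. No clear pairing by number was seen, and so few arrays cannot settle whether the samples were paired. Near the lowest values of an array, as for Ears2 and Mars2, a difference could not be resolved.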
